A study of Drosophila melanogaster with 6 samples.

Results

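CG3085, CG7900, CG17681 and CG14795 are 4 protein-coding fly genes whose transcripts were more abundant after RNA interference against spotted-dick than after control RNA interference. They were picked as little-studied genes from among the largest rises of this comparison, so their own differences are given as a description, with no test. Each gene had 1 probe set on the array, which makes 4 of 18769 probe sets for fly transcripts, or 4 of 11982 genes with a probe set of their own. The genes lie on 4 chromosome arms in the RefSeq gene table, CG3085 on 2R, CG7900 on 3R, CG17681 on 2L and CG14795 on X, and none is among the 5 nearest genes of another.

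All samples were Drosophila S2 cells, an embryonic line with hemocyte-like features, collected 5 days after double-stranded RNA (dsRNA) was added. In 3 samples the dsRNA matched GFP, which flies do not have, and in the other 3 it matched spotted-dick, now named pita. Neither the use of another dsRNA against spotted-dick nor a rescue is named in the labels. Whether replicates were separate cultures is not in the labels, so p-values measure only the spread between these samples, which may be technical. Total RNA was hybridised to Affymetrix Drosophila_2 arrays, 1 per sample, and every value below starts from a deposited signal per probe set, a linear intensity. In bulk RNA, more transcript per cell and more cells that express a gene cannot be told apart.

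Spotted-dick is a zinc-finger protein that binds DNA and is known for its part in expressing the replication gene Orc4 and for its role at chromatin boundaries. CG3085 is a predicted tektin, one of the filament proteins that run along the microtubules of cilia and sperm tails. CG7900 is a predicted fatty acid amide hydrolase, an enzyme class that cleaves lipid amides. Both predictions come from general knowledge and were not checked by sequence here. No role is given here for CG17681 and CG14795. The treatment was checked on its target: pita had signals of 335.9, 333.2 and 269.7 with GFP dsRNA and of 25.9, 46.6 and 28.7 with spotted-dick dsRNA, with no overlap. Orc4, which encodes an origin recognition subunit, went from between 100.9 and 146.0 to between 2.7 and 14.2.

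The arrays differed in brightness, with trimmed mean signals from 125.4 to 189.6, and the 2 brightest were GFP replicates 1 and 2. Signals were therefore quantile normalized, which gives every array the same distribution, before differences were taken on the scale of log2(signal + 16). As deposited, the median difference over all tested probe sets was -0.20, spotted-dick minus GFP. The arrays were washed on 2 fluidics stations, with GFP replicates 1 and 2 and spotted-dick replicate 1 on station 1 and the other arrays on station 2. The GFP arrays were all scanned first, and order of scanning therefore cannot be told apart from treatment. Brightness was set against control probe sets for foreign sequences, whose 95th percentile was a signal of 17.4. The number of arrays limits the precision of every value.

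Every spotted-dick array lay above every GFP array in all 4 genes, which is no separate evidence, since they were chosen for large rises. Over all tested probe sets this held for 1.35% as deposited and for 9.45% after quantile normalization. Ordered by size on the log2(signal + 16) scale, the differences were 2.48 for CG3085, 1.72 for CG7900, 1.53 for CG17681 and 1.12 for CG14795.

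CG3085, the predicted tektin, showed the widest separation of the 4 genes. Its signals were 24.4, 13.0 and 16.1 with GFP dsRNA (replicates 1, 2 and 3) and 136.5, 136.4 and 175.5 with spotted-dick dsRNA. Only 1 of the 3 GFP arrays lay above the foreign-sequence 95th percentile, whereas all 3 spotted-dick arrays lay far above it, and the lowest spotted-dick signal was 5.59 times the highest GFP signal. The group means were 17.8 ± 5.9 and 149.5 ± 22.5 (SD, n = 3 and 3). On the log2(signal + 16) scale the difference was 2.48, against a pooled SD within groups of 0.21. Since the GFP signals were close to background, its size depended on the pseudocount, at 3.26 with 1 and 1.51 with 64. Among all fly probe sets of an array, CG3085 stood between the 47.3rd and 57.4th percentiles in the GFP arrays and between the 74.2nd and 78.3rd in the spotted-dick arrays.

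**Figure D1:**
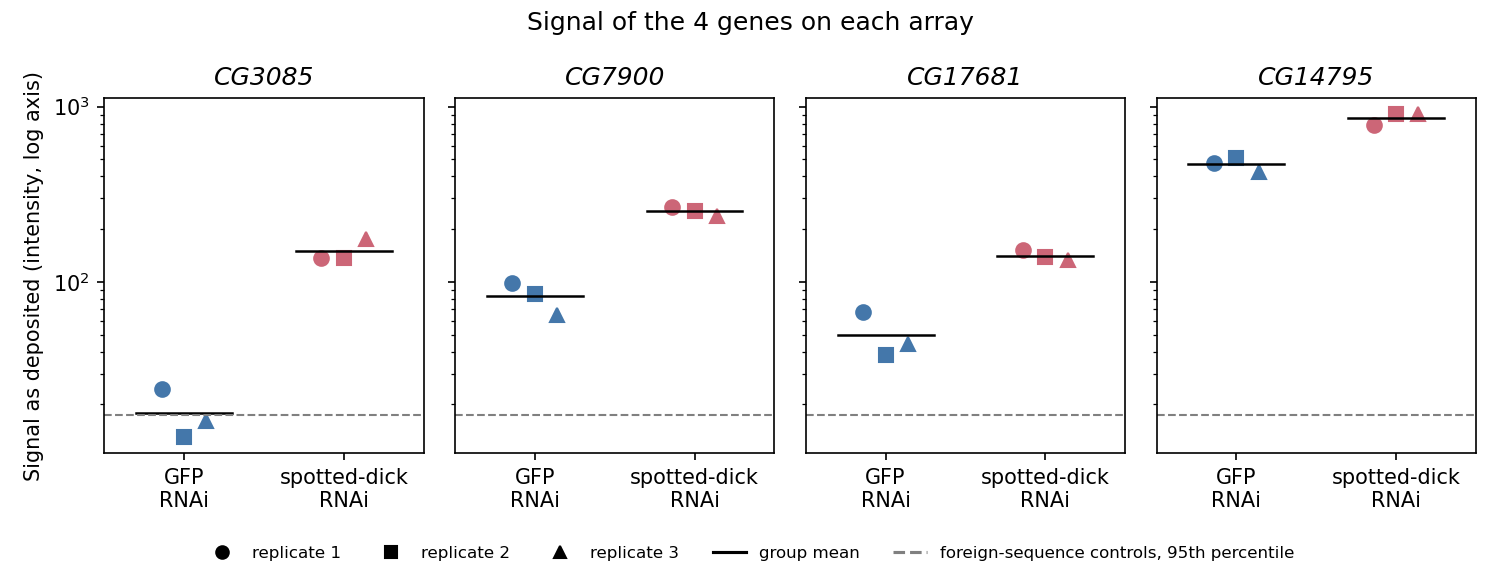
Deposited signal (linear intensity on a log axis) of the 4 genes on each array, with GFP RNAi in blue, spotted-dick RNAi in red, a marker shape for each replicate, black lines for group means and a dashed line at 17.4, the 95th percentile of foreign-sequence controls. In each panel the 3 spotted-dick arrays lie above the 3 GFP arrays, and CG3085 alone has GFP arrays under the dashed line.

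CG7900, the predicted amide hydrolase, was clearly above background in both groups. Its signals were 98.3, 85.4 and 64.5 with GFP dsRNA and 267.6, 253.0 and 237.9 with spotted-dick dsRNA. The groups did not overlap, and the ratio of the group means was 3.06. The GFP signals followed the brightness of their arrays, and after quantile normalization they were 73.5, 75.4 and 74.9. The difference of 1.72 on the log2 scale stood against a pooled SD of 0.08 (0.02 among the GFP arrays and 0.11 among the spotted-dick arrays). It was 1.46 on values as deposited, or 1.66 measured from the median of the tested probe sets. CG7900 stood between the 67.5th and 67.7th percentiles of the GFP arrays and between the 82.0th and 84.0th of the spotted-dick arrays.

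CG17681 was also above background on every array. Its signals were 67.1, 38.2 and 44.2 with GFP dsRNA and 151.9, 138.8 and 132.7 with spotted-dick dsRNA. GFP replicate 1 was the highest of its group, yet the lowest spotted-dick signal was still 1.98 times as high. The log2 difference was 1.53 against a pooled SD of 0.19, and 1.28 as deposited. The spread was wider among the GFP arrays (SD 0.24 on the log2 scale) than among the spotted-dick arrays (0.11).

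CG14795 had the smallest difference of the 4 genes, except with a pseudocount of 64 (1.04, against 1.03 for CG17681), and was well above background throughout. Its signals were 474.5, 509.0 and 424.0 with GFP dsRNA and 785.0, 906.6 and 905.1 with spotted-dick dsRNA. The lowest spotted-dick signal was 1.54 times the highest GFP signal. The log2 difference was 1.12 against a pooled SD of 0.17, and 0.86 as deposited, or 1.07 measured from the median of the tested probe sets. Its position within the arrays moved from between the 85.9th and 89.6th percentiles to between the 94.5th and 95.2nd.

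All 4 genes, which were picked from among the largest rises, stood among them under both scalings. By log2 difference they ranked 2, 3, 5 and 8 of 11270 tested probe sets in the order CG3085, CG7900, CG17681 and CG14795, and 2, 3, 5 and 11 as deposited. Only 10 probe sets were higher by at least 1 on the log2 scale after quantile normalization, and 7 as deposited. The others among the 10 largest were ND-B8, RpS10a, Pxn, PPO1, kat80 and a probe set unnamed here.

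**Figure D2:**
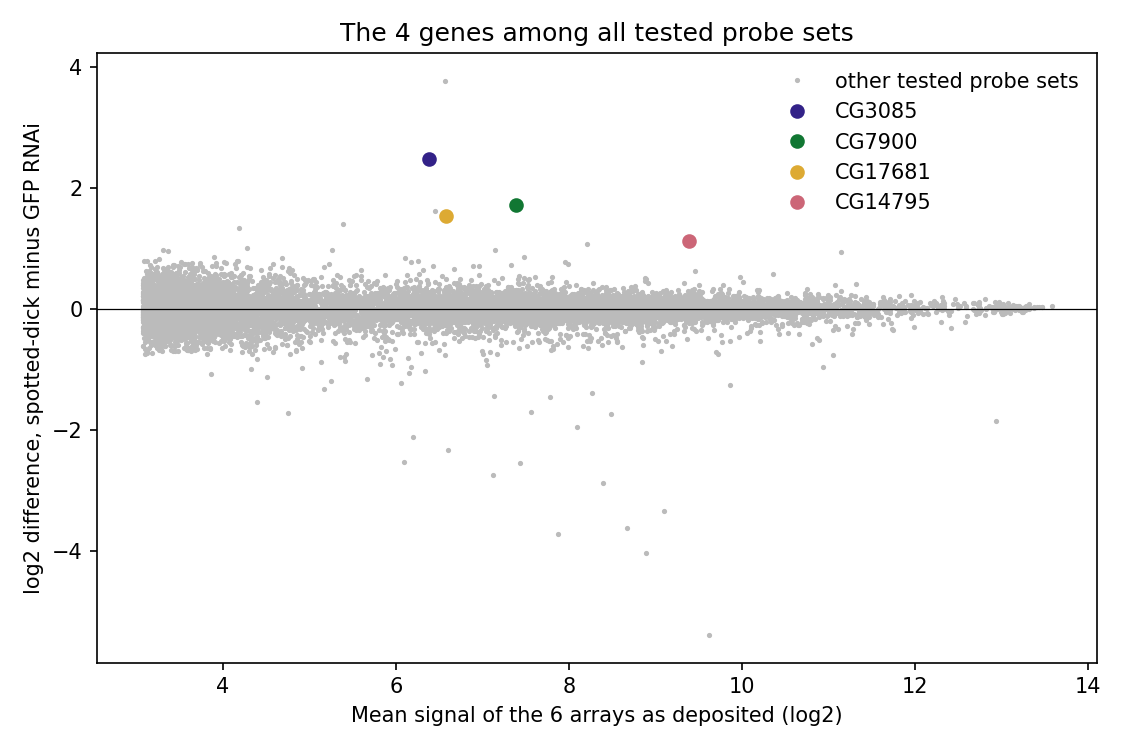
Log2 difference, spotted-dick minus GFP RNAi, of quantile-normalized log2(signal + 16) (y axis) against the mean deposited signal of the 6 arrays (x axis, log2) for the 11270 tested probe sets, with the 4 genes in colour. CG3085, CG7900 and CG17681 lie at 2.48, 1.72 and 1.53, and CG14795 lies at 1.12.

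Using the values as deposited moved each difference further than leaving out any single array. Leaving out each array in turn gave differences from 2.36 to 2.56 for CG3085, from 1.66 to 1.75 for CG7900, from 1.39 to 1.60 for CG17681 and from 0.99 to 1.21 for CG14795. Within station 1, which had 1 spotted-dick array, the differences were 2.41, 1.85, 1.72 and 1.14 in that order of genes. Within station 2, which had 1 GFP array, they were 2.50, 1.65, 1.33 and 0.97. On values as deposited the difference of CG14795 was 0.66 in station 1 and 1.07 in station 2. No gene changed direction under any of the 13 alternatives.

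**Figure D3:**
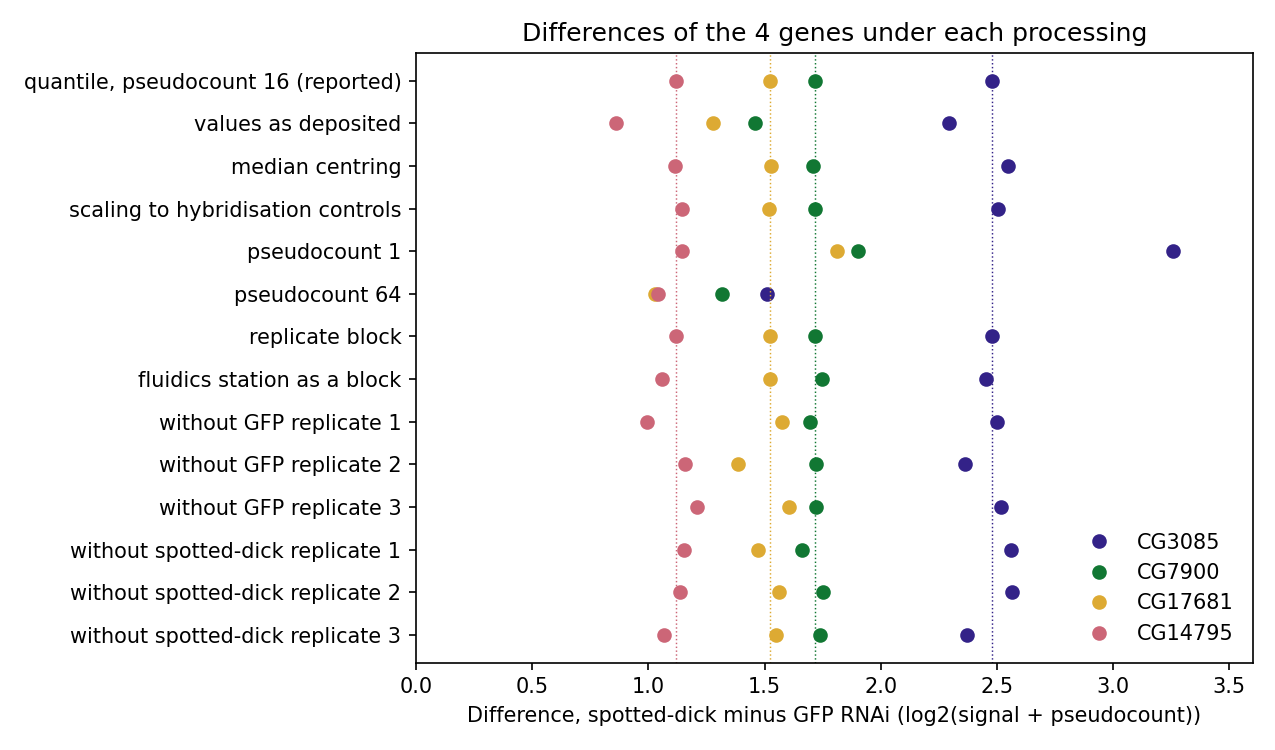
Log2 difference, spotted-dick minus GFP RNAi, of each gene (x axis, one colour per gene) under the reported processing and 13 alternatives (y axis), with dotted lines at the reported values. Every point lies above 0, and the pseudocount moves CG3085 most, from 1.51 to 3.26.

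Within the groups the 4 genes showed no common pattern. The correlation between their deviations from the group means ranged from -0.33, for CG17681 and CG14795, to 0.49, for CG3085 and CG17681. These values rest on 6 arrays and are a description.

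The genes whose pattern over the 6 arrays was most like each of the 4 were sought among 8271 other named genes by Pearson correlation of the quantile-normalized log2 values. For CG7900 these were ND-B8, a gene of mitochondrial complex I (r = 0.998), fzr, which activates the anaphase-promoting complex (0.997), and Leash (0.994). For CG17681 they were CG3430 (0.994), CG3038 (0.992) and Pxn, an extracellular matrix peroxidase (0.992). For CG3085 they were AcCoAS, an acetyl-CoA synthetase (0.995), Ucp4A, a mitochondrial carrier (0.994), and CG7201 (0.992). For CG14795 they were CG8112, CG31365 (both 0.987) and qin, a germline small-RNA pathway gene (0.985).

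This correlation takes no account of the size of a difference: AcCoAS, the most alike of CG3085, had one of 0.22. The GFP signals of ND-B8 were at most 0.7, whereas its spotted-dick signals were 196.9, 206.7 and 163.8. All 6 signals of CG7201 were at most 14.3. The pattern of CG7201 thus rests on values under 17.4, at background, and for ND-B8 this holds for the GFP arrays only. Near this level were also the GFP signals of Pxn, at 30.2, 11.5 and 16.8, and all 6 signals of qin, from 16.6 to 23.5. The likeness also depended on scaling. On values as deposited r was 0.98 for ND-B8 and 0.99 for Pxn and CG7201, but -0.04 for AcCoAS, -0.12 for CG8112 and -0.18 for CG31365. With 6 arrays high values were common: from 186 to 215 genes per member had r above 0.9. This r also includes the difference between the treatments, for which the members were picked. A gene that separated the groups after quantile normalization could therefore reach a high r without sharing the spread within groups. For these pairs r within groups was not computed, so shared regulation was not tested.

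The genes beside the 4 were chosen by position in the RefSeq gene table, 5 on either side of each, and their values were not used to choose them. Of these 40 neighbours, 26 had a probe set of their own and 17 were tested. In the limma fit over all tested probe sets, 2 neighbours rose and 1 fell at a Benjamini-Hochberg adjusted p under 0.05, which is 17.6% of those tested. Over all tested probe sets 2.03% were called, 0.603% as higher and 1.43% as lower. The 17 neighbours are too few to show an enrichment. Their calls numbered 1 on values as deposited and 0 when limma was run without its intensity trend. Of the 17, 15 had a mean GFP signal above 17.4, against 8379 of the 11270 tested probe sets. At an unadjusted p under 0.05 there were 5 of the 17 neighbours, and 12.3% of all tested probe sets. The median difference of the 17 neighbours was -0.05, and that of all tested probe sets 0.01.

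CG5783, separated from CG17681 by 1 gene, rose. Its signals were 113.8, 101.6 and 90.3 with GFP dsRNA and 127.3, 171.3 and 141.2 with spotted-dick dsRNA, with no overlap. The log2 difference was 0.71 ± 0.12 (SE, n = 3 and 3, limma adjusted p = 0.0031), and it was 0.64 within either station. As deposited it was 0.46 and the call ended (limma adjusted p = 0.422). CG15155, the gene between them, had signals of 3.1, 2.4 and 3.0 against 8.9, 5.1 and 7.2, all under 17.4, and was too dim to be tested.

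CG5758, the outermost of the 5 genes on the other side of CG17681, fell. Its signals were 194.4, 228.8 and 134.6 with GFP dsRNA and 87.9, 65.6 and 76.3 with spotted-dick dsRNA. The log2 difference was -0.85 ± 0.14 (SE, limma adjusted p = 0.00304), and -1.10 as deposited (limma adjusted p = 9.99e-05). Between these genes kel, which encodes the actin-binding ring canal protein Kelch, had a difference of -0.42 that did not pass (limma adjusted p = 0.194).

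Fib, the fibrillarin gene for an RNA methyltransferase of the nucleolus and the nearest tested gene on one side of CG3085, rose slightly. Its signals were 1401.5, 1145.5 and 878.9 with GFP dsRNA and 1065.2, 1275.3 and 1159.3 with spotted-dick dsRNA, so the groups overlapped before scaling. The log2 difference after quantile normalization was 0.31 ± 0.06 (SE, limma adjusted p = 0.00706). It was 0.05 as deposited (adjusted p = 0.895), and the limma call also ended without GFP replicate 2 (adjusted p = 0.0541) or spotted-dick replicate 3 (0.053). Art7, an arginine methyltransferase gene on the other side whose annotated span overlaps that of CG3085, had a difference of 0.31 ± 0.11 that did not pass (limma adjusted p = 0.203).

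Around CG7900 and CG14795 no tested neighbour passed. Next to CG7900, puc, the phosphatase gene that opposes JNK signalling, had a difference of -0.03 ± 0.06 (SE, limma adjusted p = 0.897), and on the other side none of the 5 genes was tested. The annotated span of CG14795 overlaps that of inc, an adaptor gene for a ubiquitin ligase. The inc probe set had a difference of 0.11 ± 0.08 (limma adjusted p = 0.634), and Mur2B, on the other side, one of -0.05 ± 0.28 (adjusted p = 0.963).

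**Figure D4:**
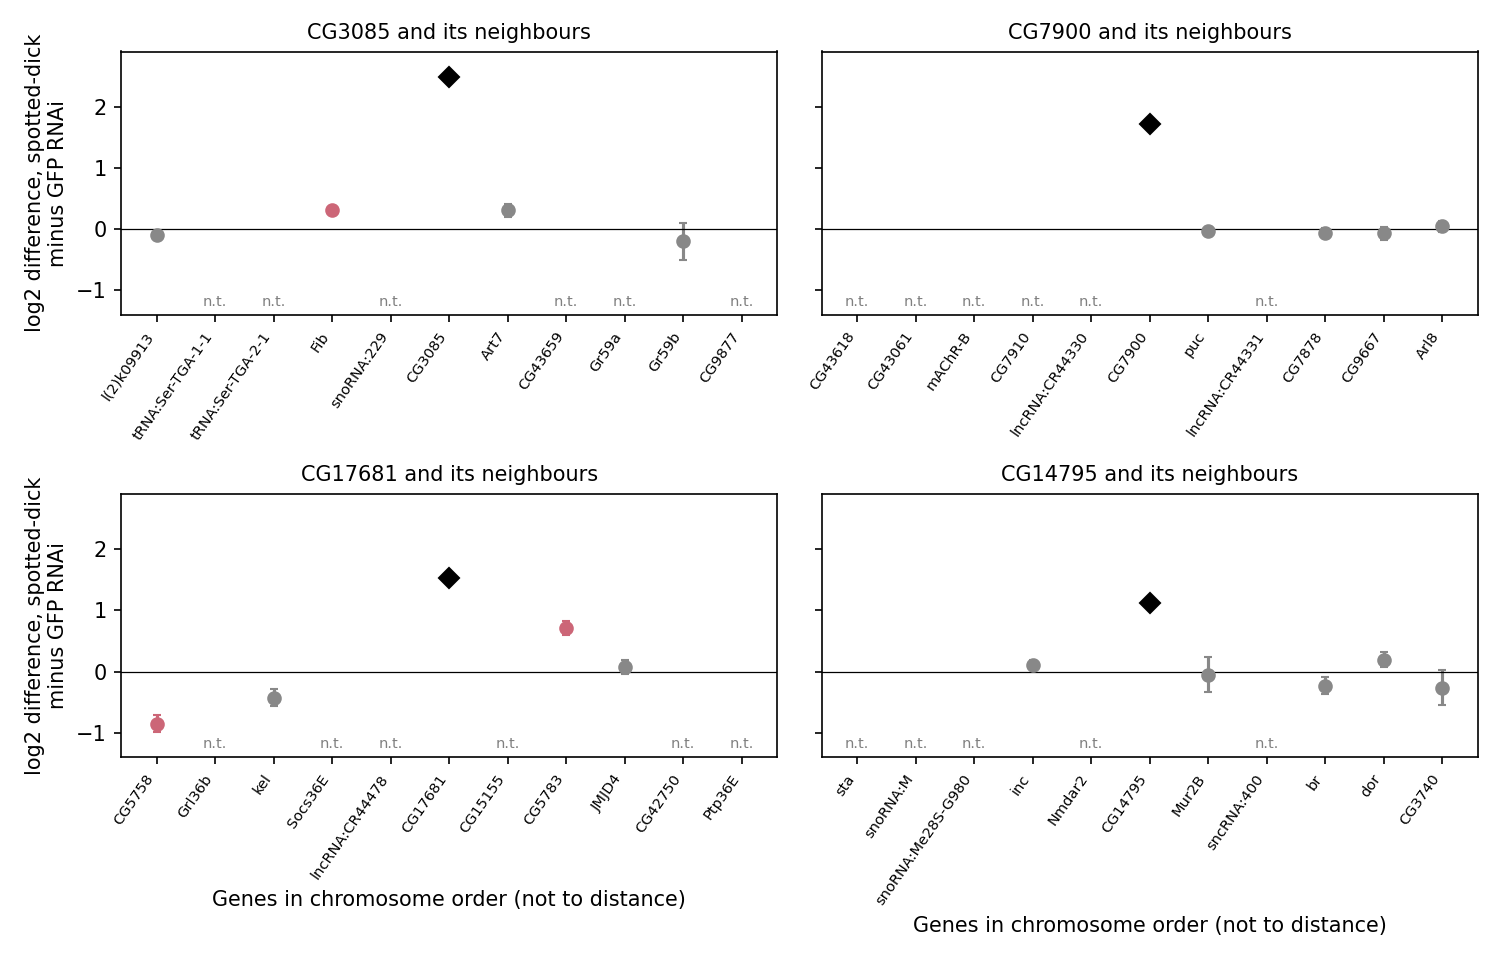
Log2 difference, spotted-dick minus GFP RNAi, of the 4 genes (black diamonds) and their 5 neighbours on either side in chromosome order (circles with SE bars, red where called, n.t. where not tested; the x axis gives order, not distance). CG5783 at 0.71 and Fib at 0.31 are the called rises and CG5758 at -0.85 the called fall.

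Of 3 tested relatives of CG7900 0 were called higher and 1 lower, against 0.603% and 1.43% of all tested probe sets. An unadjusted p under 0.05 was reached by 2 of the 3, against 12.3% of all tested probe sets. With so few genes these counts cannot show how such relatives respond. Among 4 other predicted fatty acid amide hydrolases, CG5191 fell, with signals of 853.7, 668.5 and 528.7 with GFP dsRNA and of 318.4, 475.5 and 430.3 with spotted-dick dsRNA. Its log2 difference was -0.46 ± 0.10 (SE, limma adjusted p = 0.0223). The call ended as deposited (-0.71, adjusted p = 0.0821) and without any 1 of the GFP replicates, and the difference was -0.74 within station 1 and -0.30 within station 2. CG5112 (-0.32, limma adjusted p = 0.0756) and CG8839 (-0.01, adjusted p = 0.958) did not pass. CG7910, which also neighbours CG7900, had signals from 1.4 to 5.8 in the GFP arrays and from 0.8 to 13.1 in the spotted-dick arrays, all under 17.4, and was not tested.

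Of 5 listed relatives of CG3085 only Tektin-A and Tektin-C had a probe set of their own, and both were too dim to be tested. Tektin-A had signals from 1.9 to 2.4 in the GFP arrays and from 1.6 to 15.0 in the spotted-dick arrays, and Tektin-C from 2.9 to 17.4 and from 2.9 to 8.4. No array of either gene exceeded the foreign-sequence 95th percentile.

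Other genes of sperm tails and cilia were examined as well. Of 28 cilium and axoneme genes with a probe set 14 were tested, and none passed in limma after quantile normalization or as deposited. Over all tested probe sets 2.03% passed after quantile normalization. At that share 14 genes are too few to show an absence of calls. An unadjusted p under 0.05 was reached by 12.3% of all tested probe sets, against 1 of these 14 genes. Their median difference was 0.23, ranging from -0.35 to 0.45, against 0.01 for all tested probe sets, and only 5 of the 14 had a mean GFP signal above 17.4. The smallest p-values belonged to tilB (0.45 ± 0.16, SE, limma adjusted p = 0.241), the dynein heavy chain gene Dhc62B (0.42), Cc2d2a (0.36) and rempA (0.23).

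Of 24 testis-specific genes with a probe set 11 were tested, and none passed in limma under either scaling. Over all tested probe sets 2.03% passed after quantile normalization. Here too 11 genes are too few to show an absence of calls. An unadjusted p under 0.05 was reached by 12.3% of all tested probe sets, against 1 of these 11 genes. Their median difference was -0.13, and 3 of the 11 had a mean GFP signal above 17.4. The smallest p-values belonged to vis, a regulator of spermatogenesis (0.24, limma adjusted p = 0.144), and mia (0.14, adjusted p = 0.67). The sperm-specific tubulin gene betaTub85D had a difference of -0.28 ± 0.27 (SE, limma adjusted p = 0.745). The spermatocyte regulator topi had one of -0.19 ± 0.26 (adjusted p = 0.826). Both were near background, with signals over all arrays from 1.8 to 17.7 for betaTub85D and from 5 to 20.1 for topi. The summed deposited signal of the 11 genes ran from 594.9 to 909.8 in the GFP arrays and from 664.8 to 707.1 in the spotted-dick arrays. Its largest part was vis, at 542.9, 448.3 and 378.5 with GFP dsRNA and 405.5, 473.7 and 450.7 with spotted-dick dsRNA. The 3 genes with a mean GFP signal above 17.4 were vis, mia and achi, the last with signals from 26.8 to 61.6 in the GFP arrays. These 3 listed genes were therefore not confined to testis in these data.

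Of 15 hemocyte markers with a probe set, 13 were tested and 12 of these had a mean GFP signal above 17.4. NimC1 was tested and lay under it, and gcm and Sr-CI were too dim to be tested. A bright marker was Hml, a clotting protein, with 609.2, 603.1 and 523.1 in the GFP arrays. At an unadjusted p under 0.05 there were 4 of the 13, against 12.3% of all tested probe sets, of which 2.03% were called. In limma Pxn rose (1.40, adjusted p = 0.000396) and Nplp2 fell (-0.32, adjusted p = 0.000146), and the summed signal ran from 20932 to 28009 in the GFP arrays and from 18827 to 20261 in the spotted-dick arrays, before scaling. None of 3 neural, 3 fat body and 7 germline markers tested passed in limma under either scaling. At an unadjusted p under 0.05 there were 1, 0 and 0, against the same 12.3%. With 2.03% of all tested probe sets called, lists this short are too small to show an absence of calls. In the GFP arrays 2 of the 3 neural, 0 of the 3 fat body and 5 of the 7 germline markers had a mean above 17.4. Their summed signals ran from 144.8 to 202.5, from 32.1 to 40.3 and from 147.6 to 216.0 in the GFP arrays and from 113.3 to 140.4, from 6.6 to 41.0 and from 145.4 to 176.9 in the spotted-dick arrays. The part of any other cell type in the differences of the 4 genes was not tested.

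Over the whole array 229 of 11270 tested probe sets passed in limma, 68 higher and 161 lower. As deposited the split was 11 higher and 131 lower. The share of calls that were higher was 29.7% after quantile normalization and 7.75% as deposited.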

How the data were processed

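Expression was measured in 6 samples, 3 per group, grouped by their titles. The deposited values are 1 linear intensity per probe set and array, and the software and scaling behind them are not stated in the labels or headers. Array type, station and scan order are given per the file headers. The platform annotation paired 13647 of 18769 probe sets with 1 gene, and 13544 of these matched RefSeq (Release 6 assembly) by gene ID, which supplied names and gene order. Coordinates were left out, since the genome build of the array design is not given in the sources used here.

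Intensities were quantile normalized, because brightness differed 1.51 times between arrays, and fitted as log2(signal + 16) with limma 3.58.1 in R 4.3.3 (lmFit, eBayes with trend). On this scale fold changes of dim probe sets come out too small. Probe sets under the 40th percentile of mean signal were left out, which left 11270, and a gene's brightest probe set represented it. Calls used a Benjamini-Hochberg adjusted p over all tested probe sets with a threshold of 0.05. On values as deposited, limma's prior degrees of freedom were infinite, against 10.7 after quantile normalization. The p-values as deposited therefore rest on the spread shared by probe sets of like brightness, not on a probe set's own spread. The script was tested on simulated data, and figures used matplotlib 3.10.9.

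The 4 genes and the lists were chosen with earlier results of these data known. Genes named were the 4, pita, Orc4, the nearest tested gene on either side, any called neighbour or relative, up to 4 relatives by brightness, the 3 most correlated genes per member and up to 4 genes of a list by p. CG15155, NimC1, gcm, Sr-CI, Hml, achi and the 5 other genes among the largest rises were added after their values were seen. So was kel, although as the nearest tested gene on its side of CG17681 it also falls under the rule above. The neural, fat body and germline lists are given as counts. Relatives were listed from general knowledge after the values of the 4 genes were known, and no sequences were used here. Alternatives were values as deposited, median centring, scaling to 9 hybridisation controls, pseudocounts of 1 and 64, other filters and eBayes settings, replicate or station as a block, and leaving out each array.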

Additional observations from a re-analysis of the deposited data

How the results depend on the processing

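Most settings left the differences of the 4 genes within their own replicate spread. As deposited the differences were 1.46 for CG7900, 1.28 for CG17681 and 0.86 for CG14795. With a pseudocount of 1 they were 3.26 for CG3085, 1.90 for CG7900 and 1.81 for CG17681, and with 64 they were 1.51, 1.32 and 1.03. For CG14795 they were 1.15 and 1.04, so with 64 it no longer had the smallest difference. The count of called probe sets was 142 as deposited, 126 without the filter on dim probe sets and 55 with eBayes without the trend. It ranged from 116 without GFP replicate 2 to 249 without spotted-dick replicate 2, and was 144 without GFP replicate 3 and 142 without spotted-dick replicate 3. Neighbours called numbered 1 as deposited, 0 without the trend and from 2 to 3 with 1 array left out. Without the trend the smallest of these adjusted p-values was 0.0798, for CG5783. No testis-specific and no cilium and axoneme gene was called in any of the 17 alternatives, but these lists are too short to show an absence of calls. The amidase relatives, chosen after seeing the data, gave 0 calls in place of 1 as deposited, without the filter, without the trend and without each GFP array. Same-numbered replicates did not deviate together (r = -0.06, -0.03 and 0.05). These values show no pairing by replicate number but cannot exclude it, since they rest on deviations from means of 3 arrays. With the replicate block 198 probe sets were called. The comparison by protein sequence could not be run. Signals near or under 17.4 limit what can be said of CG3085, ND-B8 and Pxn in the GFP arrays. The same holds for qin, CG7201, CG15155 and the tektin genes.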
